A study of Mus musculus with 4 samples.

Results

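The genes at the ribosomal end of the mouse mitochondrial genome, 5 in all, were examined in skeletal muscle. They are mt-Rnr1 and mt-Rnr2, which give the small and the large ribosomal RNA (rRNA) of the mitochondrial ribosome, and mt-Tf, mt-Tv and mt-Tl1, which give the transfer RNAs (tRNAs) for phenylalanine, valine and leucine. The rule that picked them uses gene names and position, as the genes that lie together where heavy-strand transcription starts, and no threshold on a measured value. They are 5 of the 37 mitochondrially encoded genes (chrM genes below) and of the 16472 genes measured. All 5 passed the filter on low values, a mean of at least 20 normalized counts over the 4 libraries.

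Skeletal muscle of wild-type (WT) mice was fractionated, and RNA of isolated mitochondria (2 libraries) and of the remaining tissue (2 libraries) was sequenced. No genotype or time point separates the groups. The strain and age of these mice and the number behind a library are not given in the sources used here. The p-values therefore measure the spread between these libraries, which may be technical. The second group carries a treatment label of tissue without mitochondria but a title of total tissue, and the study describes it once as a lysate of whole muscle. It is called remaining tissue here after its label, and whether it is depleted or whole tissue is not settled. Fragmentation of the RNA was timed separately for mitochondrial samples, so that fragmentation and group cannot be told apart. The study's methods, written for hearts, add digitonin and RNase A to isolated mitochondria before RNA isolation. No such step is described for the other fraction. If used for muscle, this treatment cannot be told apart from group either. Libraries were made, by the same methods, with a stranded kit for total RNA (SMARTer, Pico Input Mammalian). Whether that preparation removed rRNA is not stated there, and its part in the rRNA values below was not tested.

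The heavy strand of mitochondrial DNA is transcribed into long RNAs that hold many genes in a row. In most places a tRNA separates the larger genes. Enzymes cut the transcript at both ends of each tRNA, which also releases the rRNAs and mRNAs on either side. The 5 genes are the first that a polymerase meets on this strand, and a terminator lies within the tRNA gene for leucine. Both rRNAs are assembled with proteins into the mitochondrial ribosome, which makes the 13 proteins encoded in the organelle, and in some mammals a mitochondrial tRNA is built into the large ribosomal subunit as well.

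On the plus strand of chrM (build GRCm38), mt-Tf (ENSMUSG00000064336) occupies positions 1 to 68, mt-Rnr1 (ENSMUSG00000064337) 70 to 1024, mt-Tv 1025 to 1093, mt-Rnr2 1094 to 2675 and mt-Tl1 2676 to 2750. mt-Nd1, the first mRNA gene, follows from 2751. One base lies between mt-Tf and mt-Rnr1, and no base separates the others. None of the 5 genes has an intron. The tRNA genes are given here as DNA from the GENCODE M21 transcripts, 5′ to 3′, with the anticodon, the bases that read the codon, in capitals. They show how little of each tRNA there is for a read of 75 bases to fall into.
mt-Tf: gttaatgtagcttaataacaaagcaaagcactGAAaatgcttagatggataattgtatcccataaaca
mt-Tv: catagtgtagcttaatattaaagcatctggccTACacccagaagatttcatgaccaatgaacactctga
mt-Tl1: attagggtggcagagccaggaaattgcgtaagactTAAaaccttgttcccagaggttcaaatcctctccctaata

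The tRNA genes are 68, 69 and 75 bases long for mt-Tf, mt-Tv and mt-Tl1, with a GC content of 30.9%, 39.1% and 44.0%. The rRNA genes are 955 and 1582 bases long. The places where one gene passes into the next are shown because reads across them were left out of the deposited counts. Each line holds 15 bases of the upstream gene in lower case and 15 bases of the downstream gene in capitals.
mt-Rnr1 to mt-Tv: tgtgcttggaataatCATAGTGTAGCTTAA
mt-Tv to mt-Rnr2: caatgaacactctgaACTAATCCTAGCCCT
mt-Rnr2 to mt-Tl1: aacctagagaaggttATTAGGGTGGCAGAG
mt-Tl1 to mt-Nd1: atcctctccctaataGTGTTCTTTATTAAT

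Reads were 75 bases long before trimming and 30 bases or more after it, and a read that touched several genes was not counted. A full-length read has 0 start positions in mt-Tf and 0 in mt-Tv from which it touches no neighbouring gene, and 1 in mt-Tl1. For mt-Tf the 0 arises because the reference starts with this gene, so that no read can begin before it, and mt-Rnr1 follows. For mt-Rnr1 and mt-Rnr2 there are 882 and 1508 such positions. A read trimmed to 50 bases has 20, 20 and 26 positions in mt-Tf, mt-Tv and mt-Tl1, and one of 30 bases has 40, 40 and 46. The counts of these tRNAs are therefore counts of reads whose aligned part lay within the gene, and reads that ran across a gene boundary are missing from them. Read lengths were not analysed here, and their part in the results below was not tested.

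Values are normalized counts, which are gene counts that the authors divided by a size factor per library and rounded. In isolated mitochondria 1 read was worth 9.05 and 5.06 normalized counts in replicates 1 and 2, and whole reads could be recovered. In remaining tissue an estimated 7.05 reads made 1 normalized count. Depth came to 42750347 and 35305307 reads in isolated mitochondria and to an estimated 15704018 and 15301842 in remaining tissue. The 37 chrM genes held 22.3% and 20.5% of all counts in remaining tissue and 95.3% and 94.1% in isolated mitochondria. Nuclear genes that are not copies of mitochondrial DNA held 100924 and 181152 reads in isolated mitochondria. In remaining tissue they held an estimated 11989611 and 11968664. Myofibre markers were above 0 for 8 of 8 genes in all 4 libraries, with a summed level of 29.3% to 30.4% of nuclear counts in remaining tissue and 5.91% to 6.73% in isolated mitochondria. Of 25 markers of other cells (endothelial, fibroblast, adipocyte, erythroid, immune and smooth muscle) 25 were above 0 in both libraries of remaining tissue, and 19 and 22 in isolated mitochondria, where Cnn1 and Lep were at 0 in both libraries. The summed level of the 4 fibroblast markers was 0.0716% to 0.0792% of nuclear counts in remaining tissue and 0.882% to 1.80% in isolated mitochondria, and that of the 4 immune markers was 0.00400% to 0.00495% and 0.0337% to 0.0508%. The 4 endothelial markers were at 0.0238% to 0.0240% in remaining tissue and at 0.00888% to 0.0104% in isolated mitochondria. The adipocyte, erythroid and smooth muscle lists each summed to at most 0.0269% in every library, with overlapping groups. In isolated mitochondria the endothelial markers rested on 9 and 19 reads, the adipocyte markers on 5 and 17 and the erythroid markers on 12 and 8. Values at or near 0 there can come from low depth. The part of depth in these values and of other cells in the results was not tested.

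To ask how far the 5 RNAs are enriched with the organelle, their normalized counts were compared between the groups. All 5 were higher in isolated mitochondria, and no library of one group overlapped the other. As ratios of group means, mt-Rnr1 rose 630-fold, mt-Rnr2 591-fold and the tRNAs 125-fold to 167-fold. Without overlap between groups, 25.5% of all genes tested were higher and 43.7% lower. mt-Rnr1 had 132672 and 125961 normalized counts in remaining tissue and 117278362 and 45687083 in isolated mitochondria. mt-Rnr2 had 263828 and 228360 in remaining tissue and 198787276 and 92106641 in isolated mitochondria. For both rRNAs the first library of isolated mitochondria was far above the second, a wider gap than between the libraries of remaining tissue.

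The tRNAs had far fewer counts. mt-Tv, the tRNA between the rRNA genes, had 1181 and 1055 normalized counts in remaining tissue and 154544 and 125421 in isolated mitochondria. mt-Tl1 had 399 in each library of remaining tissue and 66807 and 38490 in isolated mitochondria. mt-Tf, the first gene of the strand, was the lowest of the 5 with 179 and 120 in remaining tissue and 25346 and 24587 in isolated mitochondria. The order mt-Rnr2, mt-Rnr1, mt-Tv, mt-Tl1, mt-Tf was the same in all 4 libraries, on the scale of counts per gene.

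**Figure D1:**
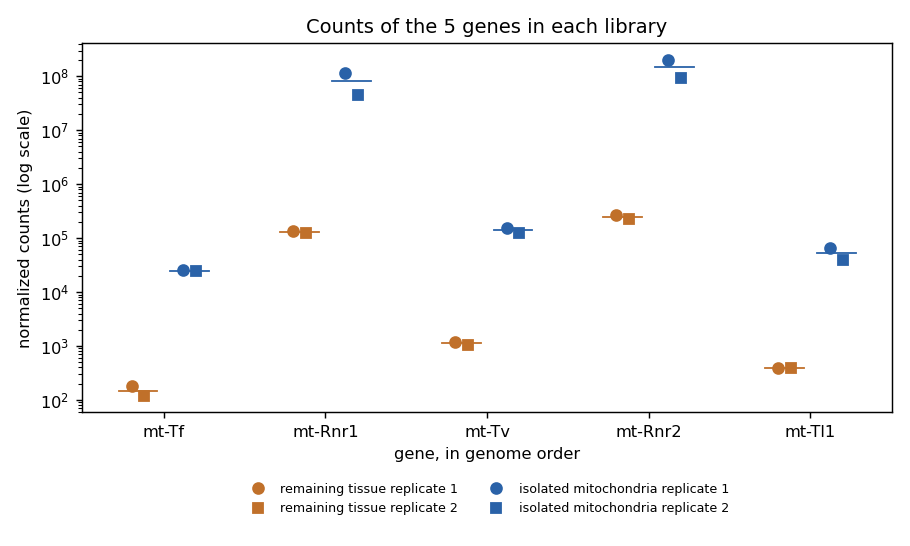
Normalized counts (log scale) of the 5 genes in genome order, with circles for replicate 1, squares for replicate 2 and a line at the mean of each group (n = 2). In every gene both libraries of isolated mitochondria lie above both libraries of remaining tissue, and the step is larger for mt-Rnr1 and mt-Rnr2 than for the 3 tRNAs.

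On the log2(normalized count + 1) scale, the differences between isolated mitochondria and remaining tissue were 9.15 (SE 0.69, adjusted p = 0.00943) for mt-Rnr1 and 9.11 (SE 0.71, adjusted p = 0.0101) for mt-Rnr2, by limma, with p-values adjusted over all 6916 tested genes by the method of Benjamini and Hochberg. They were 7.40 (SE 0.25, adjusted p = 0.00269) for mt-Tf, 6.96 (SE 0.21, adjusted p = 0.00269) for mt-Tv and 6.99 (SE 0.32, adjusted p = 0.00317) for mt-Tl1. All 5 passed the threshold of 0.05 as higher, as did 7.32% of all genes tested, while 9.3% passed as lower. All 37 chrM genes passed as higher, so that the 5 did not stand apart by their call. Their median change was 7.40, beside 8.78 for the 13 mRNAs, 7.74 for the other 19 tRNAs and -0.44 for all genes tested. The calls of the rRNAs rested on the error estimate: mt-Rnr1 and mt-Rnr2 missed the threshold without remaining tissue replicate 1 (adjusted p = 0.0684 and 0.193), and mt-Rnr2 also without remaining tissue replicate 2 (adjusted p = 0.161). Without a filter on low values both missed it (adjusted p = 0.605 and 0.794), as did mt-Rnr2 when the minimum mean was 5 (adjusted p = 0.0585).

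The deposited scaling rests on the median gene, which is a nuclear gene, and other scalings shift the median of all genes. Scaled to the total of all genes, the median change of all genes was -7.34 on the log2 scale. On that scale mt-Rnr1 and mt-Rnr2 were higher in isolated mitochondria by 2.24 and 2.21 and still passed the threshold, whereas mt-Tf (0.50, adjusted p = 0.426), mt-Tv (0.06, adjusted p = 0.885) and mt-Tl1 (0.08, adjusted p = 0.831) did not. As shares of all counts, both rRNAs together made up 17.8% and 16.3% in remaining tissue and 81.7% and 77.1% in isolated mitochondria. The 3 tRNAs together made up 0.0790% and 0.0725% in remaining tissue and 0.0638% and 0.106% in isolated mitochondria, and these groups overlapped.

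To ask how the 5 RNAs compare with the rest of the organelle's own RNA, each was expressed as a share of all chrM counts of its library. In this comparison the rRNAs and the tRNAs went apart. The 3 tRNAs together held 0.354% and 0.353% of chrM counts in remaining tissue and 0.0669% and 0.112% in isolated mitochondria, 3.95-fold less by group means. The rRNAs together held 79.8% and 79.5% in remaining tissue and 85.8% and 82.0% in isolated mitochondria. Neither pair of groups overlapped. No exact permutation test was run on these shares, because the smallest two-sided p that 4 libraries in 2 groups of 2 allow is 0.333.

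mt-Tv held 0.238% and 0.237% of chrM counts in remaining tissue and 0.0419% and 0.0746% in isolated mitochondria. The 95% Wilson intervals of both libraries of remaining tissue, 0.233% to 0.243% and 0.231% to 0.242%, overlapped, whereas those of isolated mitochondria (0.0413% to 0.0426% and 0.0737% to 0.0755%) did not overlap. Such intervals cover counting error only, and in remaining tissue they rest on estimated reads. mt-Tl1 held 0.0803% and 0.0895% in remaining tissue and 0.0181% and 0.0229% in isolated mitochondria. mt-Tf held 0.0360% and 0.0269% in remaining tissue and 0.00688% and 0.0146% in isolated mitochondria, the widest spread between replicates of the 3 tRNAs as a ratio of one replicate to the other. In each of the 3 tRNAs both libraries of isolated mitochondria lay below both libraries of remaining tissue. Relative to the chrM total, 98.7% of all genes tested were lower without overlap and 0.174% higher. Of the 37 chrM genes, 26 were lower without overlap and 2 higher. Those lower included 15 of the other 19 tRNAs and 8 of the 13 mRNAs, so the lack of overlap is not particular to these 3 tRNAs.

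mt-Rnr2 held 53.1% and 51.2% of chrM counts in remaining tissue and 53.9% and 54.8% in isolated mitochondria. The groups did not overlap, but their means differed by 2.20 percentage points, against an SD of 1.31 in remaining tissue and 0.605 in isolated mitochondria (n = 2 each). mt-Rnr1 held 26.7% and 28.3% in remaining tissue and 31.8% and 27.2% in isolated mitochondria, and its groups overlapped.

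**Figure D2:**
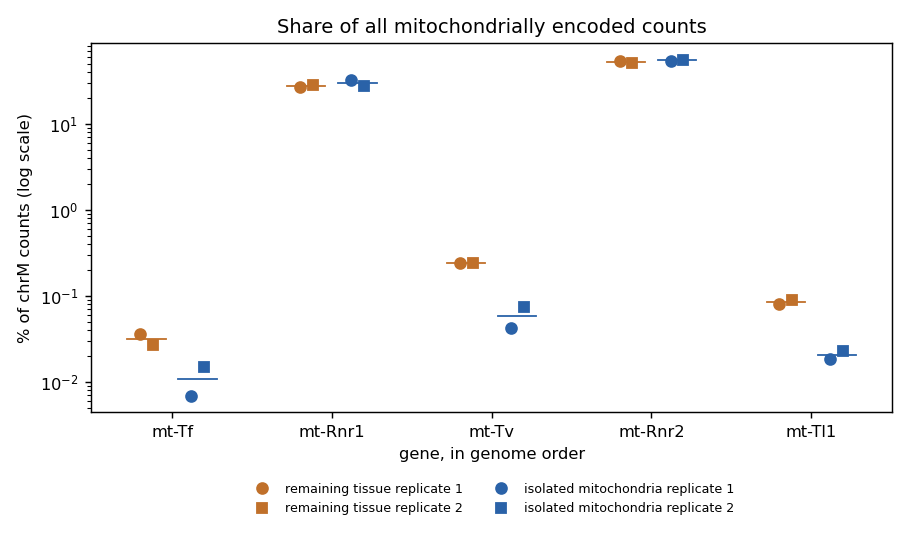
Share of all chrM counts (%, log scale) held by each of the 5 genes, with circles for replicate 1, squares for replicate 2 and a line at the mean of each group (n = 2). The 3 tRNAs sit lower in isolated mitochondria, mt-Tv at 0.0419% and 0.0746% against 0.238% and 0.237%, while the rRNAs stay within a few percentage points.

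The same comparison was tested by limma after each library was scaled to its chrM total. On this scale the log2 difference between isolated mitochondria and remaining tissue was -2.09 for mt-Tv (SE 0.40, 95% interval -3.12 to -1.05, adjusted p = 0.00370). It was -2.06 for mt-Tl1 (SE 0.40, 95% interval -3.09 to -1.03, adjusted p = 0.00390) and -1.64 for mt-Tf (SE 0.58, 95% interval -3.14 to -0.15, adjusted p = 0.0373). The rRNAs did not pass the threshold. This scale leaves them little room to rise together, because the rRNAs are themselves most of the chrM total. From their share in remaining tissue, both together could rise by at most 0.33 on the log2 scale. Taken alone, mt-Rnr1 could rise by at most 1.86 and mt-Rnr2 by at most 0.94. The difference was 0.10 for mt-Rnr1 (95% interval -0.13 to 0.33, adjusted p = 0.317) and 0.06 for mt-Rnr2 (95% interval -0.04 to 0.16, adjusted p = 0.183), and neither was called by edgeR (adjusted p = 0.588 and 0.702) or DESeq2 (adjusted p = 0.898 and 0.940) nor at an unadjusted p under 0.05 by limma. Scaled to the 13 mRNAs instead, mt-Rnr2 was called higher (0.38, adjusted p = 0.0250) and mt-Rnr1 was not (0.41, adjusted p = 0.0961). The intervals of the main fit leave room for a change of up to 0.33 and 0.16 on the log2 scale. They rest on its trended error estimate from 2 libraries per group and are no firm limit. By limma without the trend the adjusted p-values of the same differences were 0.860 for mt-Rnr1 and 0.913 for mt-Rnr2.

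On the chrM scale 98.5% of all genes tested were called lower and 0.0145% higher, with a median difference of -9.49 over all genes tested. With so many calls the adjustment changes p-values little. The background that bears on the members is that of the chrM genes, of which 14 of 37 were called lower and 1 higher. Among them were 2 of the 13 mRNAs and 9 of the other 19 tRNAs, against 3 of the 3 tRNAs and 0 of the 2 rRNAs described here. With the fit and the adjustment made over the 37 chrM genes alone, an alternative added after the data had been seen, 18 of 37 were lower and 1 higher, with adjusted p = 3.6e-06 for mt-Tv, 0.000228 for mt-Tl1, 0.00600 for mt-Tf, 0.371 for mt-Rnr1 and 0.529 for mt-Rnr2. The call of mt-Tv held under all 15 alternatives. Those of mt-Tf and mt-Tl1 were lost without remaining tissue replicate 1 (adjusted p = 0.354 and 0.0948) or replicate 2 (adjusted p = 0.225 and 0.125), and that of mt-Tf was lost under DESeq2 (adjusted p = 0.0745) and without the trend in eBayes (adjusted p = 0.0575) as well.

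Lower values on the chrM scale were common among tRNAs. Of the 22 mitochondrial tRNAs, mt-Tv, mt-Tl1 and mt-Tf had the 3rd, 4th and 9th lowest difference. The other 19 ranged from -2.96 for mt-Tw, the tRNA for tryptophan, to 1.23 for mt-Tp, the tRNA for proline, with a median of -1.31, and mt-Tp was the only tRNA above 0. The median of the 3 tRNAs described here was -2.06. The 11 other heavy-strand tRNAs also had a median of -1.31 and were all below 0, and the 8 light-strand tRNAs had a median of -0.69. The 13 mRNAs ranged from -1.07 for mt-Nd6 to 0.16 for mt-Atp8, with a median of -0.27. The rRNAs were at the upper end, above 11 of the 13 mRNAs in the case of both.

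**Figure D3:**
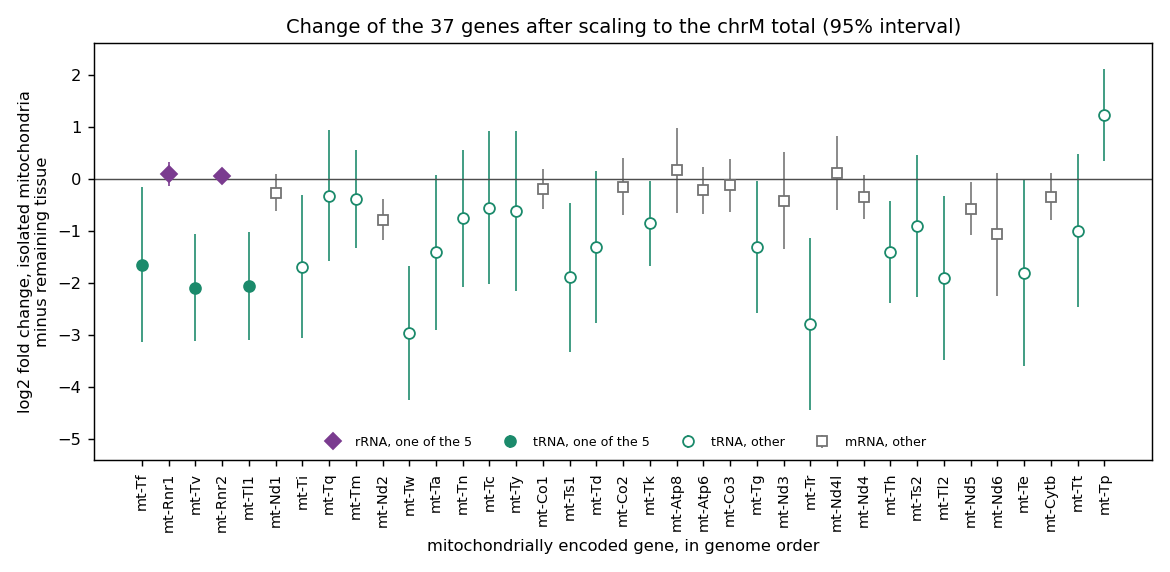
Log2 fold change (isolated mitochondria minus remaining tissue) of the 37 chrM genes in genome order after scaling to the chrM total, with 95% intervals of limma and with filled symbols for the 5 genes described. The rRNAs lie at 0.10 and 0.06 with intervals that include 0, and the 3 tRNAs beside them lie between -2.09 and -1.64.

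The tRNA pool itself also changed in make-up. The 3 tRNAs made up 25.1% and 27.1% of the counts of all 22 tRNAs in remaining tissue and 11.4% and 11.7% in isolated mitochondria. Over the same libraries mt-Tp went from 7.21% and 6.85% to 31.2% and 28.7%. Without mt-Tp, the 3 tRNAs made up 27.1% and 29.1% of the other 21 in remaining tissue and 16.5% and 16.5% in isolated mitochondria, and the groups still did not overlap. mt-Tp lies at the end of the annotated genes, beside the non-coding control region, and a 75-base read has 67 start positions in it that touch no other gene. Of the 18 tRNAs with 0 such positions all were below 0 on the chrM scale, with a median of -1.41. Of the 4 tRNAs with at least 1 position (mt-Tl1, mt-Tn, mt-Tc and mt-Tp) 3 were below 0, with a median of -0.66. Over the 22 tRNAs, the difference on the chrM scale and the number of positions for a 50-base read had a Pearson correlation of 0.59 and a Spearman correlation of 0.30. Genes of either strand counted as neighbours here, and the split and the correlations could differ if reads were counted by strand. All points share the same 4 libraries, and a part of read length in the low values of the tRNAs was not tested.

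Counts were compared between genes per nucleotide of gene length. Reads across gene boundaries were left out, so this length overstates the room for a read, most of all in tRNAs. A full-length read has 0, 0 and 1 positions in mt-Tf, mt-Tv and mt-Tl1, against 882 and 1508 in mt-Rnr1 and mt-Rnr2. Values of tRNAs beside longer genes, here and below, are therefore of kept reads only and may understate the tRNAs. mt-Rnr2 was the highest and mt-Rnr1 the next highest of the 37 chrM genes in all 4 libraries. Counts per nucleotide of mt-Rnr2 were 1.20 and 1.09 times those of mt-Rnr1 in remaining tissue and 1.02 and 1.22 times in isolated mitochondria. mt-Rnr2 was thus above mt-Rnr1 in 4 of 4 libraries, with overlapping groups and a difference between group means (1.15 and 1.12) smaller than the SD of either group (0.0750 and 0.137). Both rRNAs together were 19.1 and 18.6 times as high per nucleotide as the 13 mRNAs in remaining tissue, and 28.2 and 21.6 times as high in isolated mitochondria. The gap between the groups was larger than the spread in remaining tissue but of the order of the spread in isolated mitochondria (SD 4.70, n = 2). Some mRNA genes, among them mt-Atp6, mt-Co2 and mt-Co3, have nuclear copies at 100% identity (Gm10925, Gm28661 and Gm28437). No such copy of the rRNA genes was found. Reads that align to several places were left out, so mRNA counts may be too low and ratios to the mRNAs too high. Any removal of rRNA in library preparation, which is not stated, would also bear on ratios that include the rRNAs.

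In counts kept per nucleotide, the tRNAs stood far below the rRNAs that flank them, which reads left out at gene boundaries may exaggerate. Per 1000 counts of the rRNAs, all per nucleotide, mt-Tv had 109.5 and 109.5 in remaining tissue and 18.0 and 33.5 in isolated mitochondria. mt-Tl1 had 34.0 and 38.1 in remaining tissue and 7.15 and 9.45 in isolated mitochondria. mt-Tf had 16.8 and 12.6 in remaining tissue and 2.99 and 6.66 in isolated mitochondria. In all 3 the groups did not overlap, and the tRNAs of isolated mitochondria were higher relative to the rRNAs in replicate 2 than in replicate 1. Against the 13 mRNAs, the 3 tRNAs together stood at 1.01 and 0.990 per nucleotide in remaining tissue and at 0.264 and 0.353 in isolated mitochondria, so that the lower level in isolated mitochondria did not depend on the rRNAs as the reference.

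Ranked among the 37 genes by counts kept per nucleotide, mt-Tv was 4th in both libraries of remaining tissue. In isolated mitochondria it was 18th and 11th. mt-Tl1 went from 16th and 15th to 22nd in both. mt-Tf was 22nd and 23rd in remaining tissue and 25th and 24th in isolated mitochondria. Per nucleotide mt-Tv was 2.51 to 3.54 times as high as mt-Tl1 over the 4 libraries, and mt-Tl1 was 1.42 to 3.01 times as high as mt-Tf, with overlapping groups in both cases. mt-Tv was 6.50 and 8.66 times as high as mt-Tf in remaining tissue and 6.01 and 5.03 times in isolated mitochondria, without overlap. Relative to each other the 3 tRNAs therefore kept their order, while all 3 were lower relative to their neighbours.

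**Figure D4:**
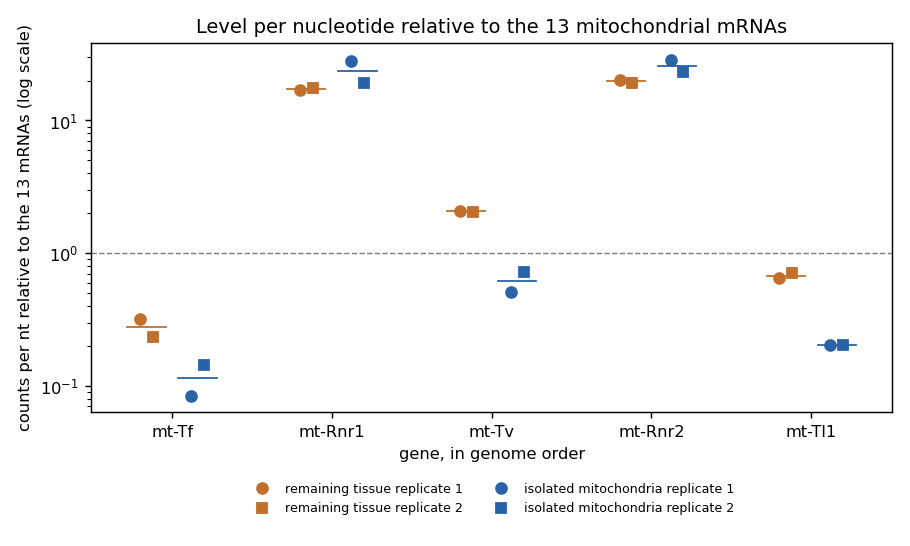
Counts per nucleotide of the 5 genes divided by those of the 13 mRNAs together (log scale, dashed line at 1), with circles for replicate 1, squares for replicate 2 and a line at the mean of each group (n = 2). mt-Rnr1 and mt-Rnr2 lie far above the mRNAs in all libraries, and mt-Tv lies above them in remaining tissue and below them in isolated mitochondria.

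mt-Tl1 marks the border between the ribosomal genes and the mRNA genes, since mt-Nd1, which encodes a subunit of respiratory complex I, starts at its next base. Per nucleotide mt-Rnr2 was 15.04 and 13.94 times as high as mt-Nd1 in remaining tissue and 19.3 and 17.2 times in isolated mitochondria. mt-Rnr1 was 12.5 and 12.7 times as high as mt-Nd1 in remaining tissue and 18.8 and 14.1 times in isolated mitochondria. mt-Tl1 itself was at 0.480 and 0.514 of mt-Nd1 in remaining tissue and at 0.137 and 0.151 in isolated mitochondria. The step from the rRNAs down to mt-Nd1 was thus present in all 4 libraries and larger in isolated mitochondria, without overlap between the groups.

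For each of the 5 genes the 3 tested genes of most similar pattern were looked up, by the root mean square difference of centred log2 values over the 4 libraries. The nearest genes to mt-Rnr1 were mt-Atp8 (0.093), mt-Rnr2 (0.10) and Gm13341 (0.17), and those to mt-Rnr2 were mt-Rnr1 (0.10), Gm28437 (0.13) and mt-Co3 (0.13). mt-Tv was nearest to mt-Tl2 (0.11), mt-Tl1 (0.18) and Gm11410 (0.19), and mt-Tl1 to Gm11410 (0.072), Gm50174 (0.082) and mt-Ts1 (0.13). mt-Tf was nearest to mt-Tl2 (0.17), mt-Te (0.18) and mt-Ta (0.18). Gm13341, Gm28437 and Gm11410 are nuclear genes that hold copies of mitochondrial DNA, most like mt-Co2, mt-Co3 and mt-Cytb and not the 5 genes described. Gm11410 had only 7 and 8 normalized counts in remaining tissue. The nearest genes of the 3 tRNAs were 7 different genes, of which 5 were mitochondrial tRNAs, mt-Tl1 among them.

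Among the annotated transcripts of nuclear genes, sequence shared with the members was rare, and copies outside annotated genes were not analysed here. Of the 30-base stretches of mt-Rnr2, 44 of 1553 (2.83%) occur unchanged in another gene, Gm20594 on chromosome 6 (79817916 to 79818364, GRCm38), and no such stretch of the other 4 members was found in another gene. Gm20594 matches mt-Rnr2 over 439 bases at 88.4% identity. It had 273 and 246 normalized counts in remaining tissue and 106468 and 39911 in isolated mitochondria, which is 0.0433% to 0.108% of the counts of mt-Rnr2. Reads that align to several places were left out by the authors, and counts of Gm20594 and of the matching part of mt-Rnr2 are uncertain to that extent.

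Mitochondrial rRNAs and tRNAs are made, cut, modified and charged by proteins encoded in the nucleus. Of 69 such genes listed, 62 were in the table and 23 passed the filter on low values. On the deposited scale 1 of the 23 was called higher in isolated mitochondria and 0 lower by limma, beside 7.32% and 9.3% of all genes, and the median was -0.48 against -0.44 for all genes tested. At an unadjusted p under 0.05 these counts were 1 and 3, edgeR called 1 and 3, and DESeq2 called 2 and 2. The gene called by limma was Lars2, which charges the mitochondrial leucine tRNAs, with 189 and 225 normalized counts in remaining tissue and 480 and 521 in isolated mitochondria (log2 difference 1.27, SE 0.20, adjusted p = 0.0286). The call was lost without remaining tissue replicate 1 (adjusted p = 0.303) or replicate 2 (adjusted p = 0.166) and without the trend in eBayes (adjusted p = 0.0673), and its direction turned when libraries were scaled to the total of all genes (-5.63). Polrmt, the mitochondrial RNA polymerase and the lowest of the 23, was at -2.10 (SE 0.73, adjusted p = 0.122) and Gtpbp3, a tRNA-modifying enzyme and the highest, at 1.29 (SE 0.50, adjusted p = 0.152). In isolated mitochondria Polrmt had 18 and 5 normalized counts and Gtpbp3 27 and 46, where 1 read is worth 9.05 and 5.06. Both changes, and those of many others of the 23, thus rest on few reads. For such genes the lack of a call says little. After scaling to the chrM total all 23 were called lower, as were 98.5% of all genes. In these fractions, fewer mitochondria or cells and less RNA per mitochondrion or cell cannot be told apart.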

How the data were processed

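RNA of 4 libraries was compared, with groups and replicate numbers taken from the labels. The submitters' processing notes name Trimmomatic 0.39 for trimming, STAR 2.7.10a for alignment to GRCm38, featureCounts 2.0.2 for unique reads per gene and DESeq2 1.30.1 for scaling. The study's methods name the same tools, with other versions of the last 3. The strand setting is not given in the sources used here. The deposited signal is a gene count that the authors divided by a size factor and rounded. In isolated mitochondria 100% of 10508 and 11660 values under 2000 were whole multiples, after rounding, of 1 read.

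The main tests, for genes with a mean of at least 20, used limma 3.58.1 on log2(normalized count + 1) (trended eBayes, two-sided, threshold 0.05), as deposited and after scaling to the chrM total. Alternatives used edgeR 4.0.16 and DESeq2 1.42.0 on reads, estimated ones in remaining tissue. Coordinates of 37 of 37 chrM genes matched GENCODE M21. Nuclear copies, 17 genes, were found with BLAST 2.17.0 (at least 30 bases, 85% identity, 50% of the transcript). The tests were tried on simulated data. Genes named were the 5 members, the extremes of the mRNAs and tRNAs, the 3 most similar genes of each member, copies sharing at least 100 bases, and up to 2 called genes per direction of the nuclear list. Polrmt and Gtpbp3 were added after their values were seen. The members and lists were chosen with earlier results of these data known. One list of markers is not reported here.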

Additional observations from a re-analysis of the deposited data

How the results depend on the processing

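With 2 libraries per group, errors rest on the spread of the whole table, and a group left with 1 library is assumed to vary like the other. Reads of remaining tissue are estimates. Counting did not limit the members, of which the lowest, mt-Tf in remaining tissue replicate 2, rests on about 846 reads. Of 150 alternative values of the log2 changes of the 5 members, 133 kept their direction and side of the threshold, 15 lost the call, 1 gained it and 1 reversed. The value that reversed was that of mt-Rnr1 on the chrM scale, which was not called and ranged from -0.015 without isolated mitochondria replicate 1 to 0.21 without isolated mitochondria replicate 2. The change of Lars2 reversed, to -5.63, under scaling to the summed counts of all genes, which lowers nearly every nuclear gene by construction.

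The replicate numbers are shared by the groups, but nothing says that they mark the same mouse, and deviations of same-numbered libraries correlated at 0.14 over 6916 genes. With a replicate block, 630 genes were higher and 1144 lower on the deposited scale, and none of the 10 results of the 5 members changed its call. A block in 4 libraries leaves little of a gene's own spread, so its error rests almost wholly on the whole table. The unchanged calls therefore say little.

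On the deposited scale 506 genes were higher and 643 lower without the block, so that 44.0% of calls were higher. This share was 58.5% scaled to the upper quartile, 54.8% with edgeR and TMM, 53.9% without the trend and 18.0% without a filter. Higher genes numbered 283 at a minimum mean of 5, 36 scaled to the total, 956 with edgeR, 1098 with TMM, 1170 with DESeq2 and 296 to 1724 without 1 library. Lower genes numbered 399 at a minimum mean of 5, 3026 without a filter, 374 without the trend, 6686 scaled to the total, 1298 with edgeR, 1326 with DESeq2 and 176 to 3198 without 1 library. Among the fits without 1 library, fewest genes were called without remaining tissue replicate 1, and more without a library of isolated mitochondria than without one of remaining tissue. The cause was not tested.

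On the chrM scale 1 gene was higher, against 2 with a pseudocount of 0.5, 4 scaled to the 13 mRNAs, 5 with edgeR and 0 to 2 without 1 library. Lower genes numbered 6815, against 11799 at a minimum mean of 5 and 16418 without a filter, where more genes are tested. With nuclear copies in the denominator, the share of the rRNAs was 75.1% in remaining tissue and 79.7% in isolated mitochondria, and that of the 3 tRNAs 0.333% in remaining tissue. After division by gene length these shares were 62.03% and 71.3% for the rRNAs and 5.05% and 1.39% for the tRNAs. With copies added to the gene they resemble, the rRNAs were 14.3 and 18.6 times as high per nucleotide as the mRNAs. This does not bring back reads left out because they align to several places.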
